A study of Homo sapiens with 9 samples.

Results

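The genes described here are those of the TAL1-LMO2 complex with RUNX1 and its ETS partners. They are TAL1, LYL1, LMO2, LDB1, CBFA2T3, FLI1, ERG, ETV6, RUNX1 and CBFB. They were taken by gene symbol from a table of read counts, and all 10 were among its 21229 genes. All 10 also passed the filter on low counts, which left 16232 genes to be tested. Strand-specific RNA sequencing was used on haematopoietic cells grown from H1, a human embryonic stem cell line. The 3 groups had 3 libraries each: CD90+ cells that overexpressed GATA2, CD90+ control cells and CD38+ control cells. CD90 is the product of THY1, and CD38 is a surface antigen of more committed blood cells. The sources used here do not give the construct and promoter behind the GATA2 overexpression, the days of culture or the number of clones. Nor do they say whether replicate libraries stem from different cultures, so every p-value reflects only the spread among these libraries, which may be technical.

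TAL1 and LYL1 are related basic helix-loop-helix factors that bind DNA as dimers with E proteins. LMO2 is a bridging protein with LIM domains that does not bind DNA itself, and LDB1 holds LMO2 and forms dimers that join distant regulatory elements. GATA1 or GATA2 occupies the same assembly in blood progenitors, and CBFA2T3 (ETO2) brings corepressors to it. FLI1 and ERG are ETS factors of blood and endothelium, ETV6 is an ETS repressor, and RUNX1 is the DNA-binding part of core-binding factor, whose partner CBFB raises its affinity for DNA. TAL1, LYL1, LMO2, GATA2, RUNX1, ERG and FLI1 are known together as the heptad, 7 factors that occupy many shared regulatory regions in blood stem and progenitor cells. RUNX1 is required for blood cells to arise from endothelium in the embryo, and TAL1 and LMO2 for the first blood cells to form.

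Levels are given as CPM, a gene's reads relative to the total of its library, scaled by factors computed with the trimmed mean of M values (TMM). Total counts were 37500192 to 39582736 per library with GATA2 overexpression, 42577569 to 47261093 per CD90+ control library and 42695005 to 45561088 per CD38+ control library. The fewest reads for one of the 10 genes in a library were 121, for ERG in CD38+ control cells. GATA2 itself averaged 376 ± 12.8 CPM with overexpression and 87.3 ± 1.93 CPM in CD90+ control libraries, whereas CD38+ control cells had 569 ± 16.3 CPM (SD, n = 3 each). Overexpressed and endogenous GATA2 reads are not separated in these counts. Genes were called with edgeR's quasi-likelihood test at a Benjamini-Hochberg adjusted p under 0.05 over all genes tested. Scaling by library size alone moved the log2 fold changes of all genes by a median of -0.25 for GATA2 overexpression against CD90+ control, by 0.41 for CD90+ control against CD38+ control and by 0.16 for GATA2 overexpression against CD38+ control. Changes below these sizes are accordingly relative to the TMM scaling.

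Within CD90+ cells, the first comparison set GATA2 overexpression against control and bears on how the partners of GATA2 differ when it is overexpressed. Of the 10 genes, 9 rose and 0 fell, and LMO2 was not called. Over all genes tested 77.6% were called, 38.0% higher and 39.6% lower. With library size only, 35.5% of the calls over all genes were higher, against 49.0% with TMM factors. ERG, LYL1 and FLI1 rose at least 2-fold, which 7.98% of all genes did, and CD90+ control libraries did not overlap those with GATA2 overexpression for 9 of the 10 genes, against 80.4% of all genes tested. FLI1 stood at the 2-fold limit, with a log2 fold change of 1.003 that was below 1 with several other settings, among them RLE factors (0.95), upper-quartile factors (0.89) and library size only (0.76), while its call held under every alternative run. The median log2 fold change was 0.55 over the 10 genes and -0.04 over all genes tested. Whether GATA2 itself, the culture or the make-up of the sorted cells goes with these differences cannot be told apart.

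The second comparison set the sorted fractions without added GATA2 against each other. It divided the genes evenly, with 5 higher (ERG, LMO2, TAL1, CBFA2T3 and FLI1) and 5 lower (RUNX1, CBFB, LYL1, LDB1 and ETV6) in CD90+ control cells. Over all genes tested 80.4% were called, 41.1% higher and 39.3% lower. The share of calls that were higher was 51.2% over all genes with TMM factors, 71.2% with library size only and 64.3% with upper-quartile factors. Those at least 2-fold higher were ERG, LMO2 and TAL1, as were 22.6% of all genes, and none of the 10 was at least 2-fold lower, against 13.6% of all genes. With library size only, CBFA2T3 (log2 fold change 1.30) and FLI1 (1.05) were above 2-fold as well. The median log2 fold change was 0.24 over the 10 genes and 0.03 over all genes tested. Libraries of the CD90+ and CD38+ control groups did not overlap for any of the 10 genes, as for 82.8% of all genes tested.

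Against CD38+ control cells, GATA2 overexpression CD90+ cells had 8 of the 10 genes higher and 2 lower, the core-binding factor genes RUNX1 and CBFB. Over all genes tested 83.2% were called, 43.3% higher and 39.9% lower, and the libraries did not overlap for 83.0%, against 10 of the 10 genes. ERG, FLI1, CBFA2T3, TAL1 and LMO2 were at least 2-fold higher, as were 23.0% of all genes, and the median log2 fold change was 0.87 over the 10 genes and 0.07 over all genes tested. The 3 comparisons share groups of libraries pairwise, so their results are not independent. In bulk RNA a change in the share of cells that express a gene and a change in the RNA per cell cannot be told apart, and this holds for every result below.

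**Figure D1:**
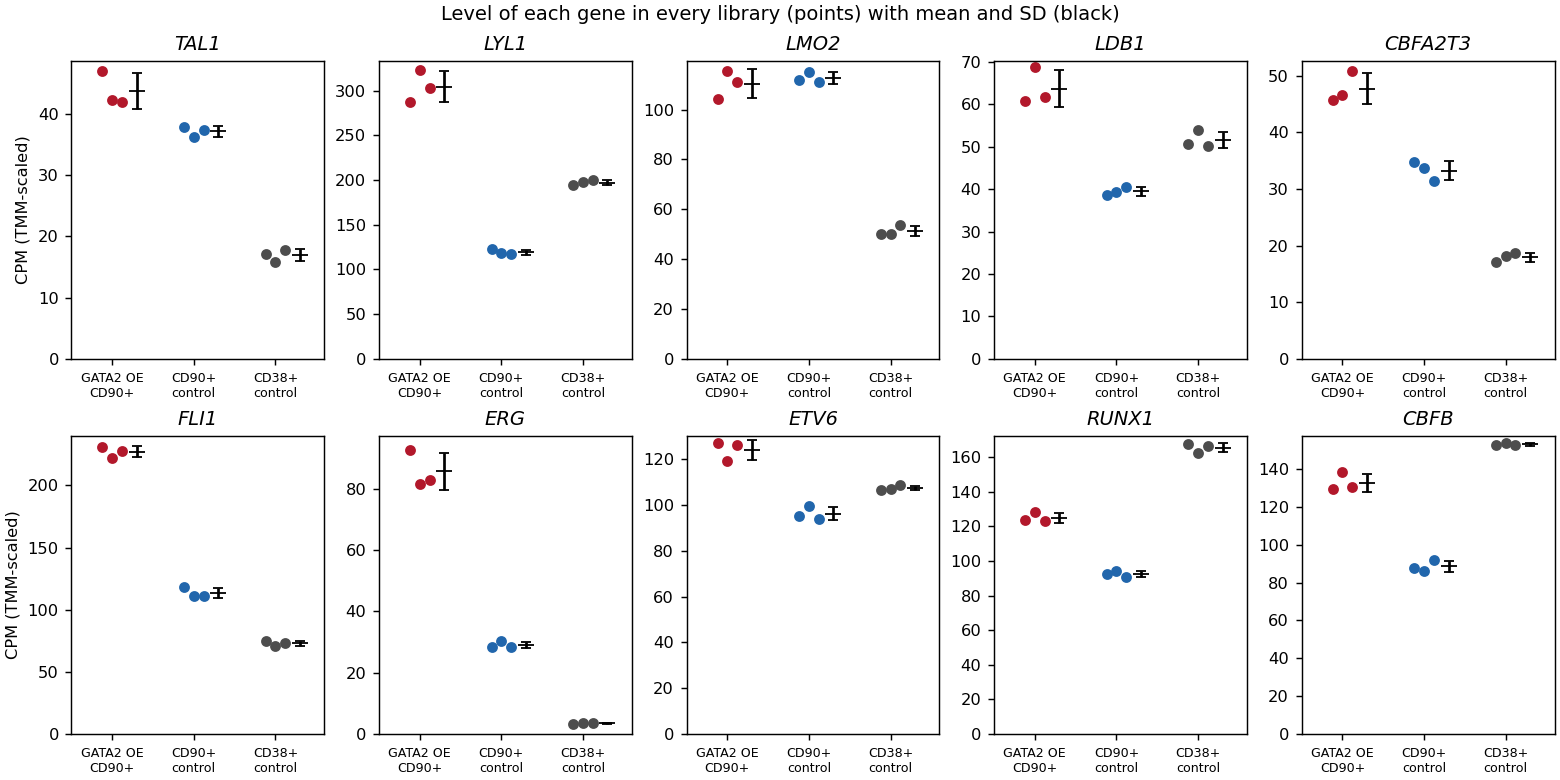
Level of each of the 10 genes in CPM (vertical axes, linear from 0) in the 3 libraries of each group (points), with the mean and SD in black. ERG was at 81.7 to 92.7 CPM with GATA2 overexpression and at 3.22 to 3.58 CPM in CD38+ control libraries, whereas RUNX1 and CBFB were highest in CD38+ control libraries, at 163 to 168 and 153 to 154 CPM.

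The basic helix-loop-helix pair moved unequally. TAL1 (ENSG00000162367.11, chromosome 1, 47216290 to 47232220, minus strand, GRCh38) had 47.0, 42.2 and 41.8 CPM in GATA2 overexpression CD90+ libraries, 37.9, 36.1 and 37.3 CPM in CD90+ control libraries and 17.1, 15.8 and 17.7 CPM in CD38+ control libraries. The groups did not overlap, and the CD38+ control libraries were the lowest. TAL1 was 2.20-fold higher in CD90+ than in CD38+ control cells (log2 fold change 1.14 ± 0.06 SE, edgeR adjusted p = 1.33e-11) and 2.59-fold higher with GATA2 overexpression than in CD38+ control cells (adjusted p = 7.91e-13). With GATA2 overexpression it was 1.18-fold higher than in CD90+ control cells (log2 fold change 0.24 ± 0.06 SE, edgeR adjusted p = 0.00109), a call that ended with upper-quartile factors (adjusted p = 0.0530) and that turned to a log2 fold change of -0.01 with library size only (adjusted p = 0.848). An antisense gene annotated without a common name covers 14.8% of the exon length of TAL1 and has no row of its own in the table.

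LYL1 (ENSG00000104903.4, chromosome 19, 13099033 to 13103161, minus strand) had 288, 323 and 304 CPM with GATA2 overexpression, 123, 118 and 117 CPM in CD90+ control libraries and 194, 197 and 199.6 CPM in CD38+ control libraries. It was thus lowest in CD90+ control libraries, where TAL1 was intermediate. LYL1 rose 2.55-fold with GATA2 overexpression within CD90+ cells (log2 fold change 1.35 ± 0.04 SE, edgeR adjusted p = 1.42e-15). It was 1.65-fold lower in CD90+ than in CD38+ control cells (log2 fold change -0.72 ± 0.04 SE, adjusted p = 5.16e-12) and 1.55-fold higher with GATA2 overexpression than in CD38+ control cells (adjusted p = 2.12e-11).

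The ratio of TAL1 to LYL1 reads within a library needs no scaling between libraries. It was 0.163, 0.131 and 0.138 with GATA2 overexpression, 0.309, 0.306 and 0.318 in CD90+ control libraries and 0.0881, 0.0803 and 0.0887 in CD38+ control libraries. The CD90+ control libraries had the most TAL1 per LYL1 read, and no groups overlapped. The ratio was 2.17-fold lower with GATA2 overexpression than in CD90+ control cells and 3.63-fold higher in CD90+ than in CD38+ control cells. In each case the exact two-sided permutation p was 0.1, the smallest that 3 against 3 libraries allow (adjusted p = 0.109 over 12 such tests).

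Because TAL1 and LYL1 moved unequally with GATA2 overexpression, their promoters are shown with the core of the GATA recognition sequence in capitals (GATAA, or TTATC where it lies on the other strand). The windows run from 250 bases before to 50 bases after an annotated start and were taken from RefSeq on GRCh38.p14, where 7 of the 10 genes had an entry. GATAA occurred on either strand in 22.7% of 35116 such windows, and at least 2 copies in 4.8%. Both windows printed here held 2 copies, at 67 and 35 bases before the start in TAL1 and at 27 bases before and 3 bases after it in LYL1. A second annotated start of TAL1 had none in its window. A match of letters is not a site of binding, and the counts do not show which start was used.
TAL1, chr1:47232286-47232585, minus strand: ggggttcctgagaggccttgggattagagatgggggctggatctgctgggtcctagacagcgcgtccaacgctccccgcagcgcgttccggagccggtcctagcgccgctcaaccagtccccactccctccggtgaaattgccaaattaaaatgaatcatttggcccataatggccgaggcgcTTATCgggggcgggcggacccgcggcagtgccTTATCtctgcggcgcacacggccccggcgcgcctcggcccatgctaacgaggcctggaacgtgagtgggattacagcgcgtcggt
LYL1, chr19:13102809-13103108, minus strand: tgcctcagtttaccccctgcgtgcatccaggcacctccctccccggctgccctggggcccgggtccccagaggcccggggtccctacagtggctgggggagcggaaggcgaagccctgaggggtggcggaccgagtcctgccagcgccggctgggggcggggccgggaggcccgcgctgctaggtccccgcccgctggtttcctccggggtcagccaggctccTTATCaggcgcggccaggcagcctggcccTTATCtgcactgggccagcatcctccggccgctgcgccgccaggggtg

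The LIM adaptors also moved apart. LMO2 (ENSG00000135363.11, chromosome 11, 33858576 to 33892289, minus strand) had 104, 116 and 111 CPM with GATA2 overexpression, 112, 115 and 111 CPM in CD90+ control libraries and 49.9, 50.05 and 53.6 CPM in CD38+ control libraries. Both CD90+ groups overlapped, and both stood above the CD38+ control libraries. LMO2 was 2.20-fold higher in CD90+ than in CD38+ control cells (log2 fold change 1.14 ± 0.04 SE, edgeR adjusted p = 6.94e-14) and 2.16-fold higher with GATA2 overexpression than in CD38+ control cells (adjusted p = 8.35e-14). Between CD90+ groups its log2 fold change was -0.03, with a 95% interval from -0.11 to 0.05 (edgeR adjusted p = 0.496). It was called lower there with library size only (-0.28), upper-quartile factors (-0.14) or a filter of 1 CPM in 3 libraries (-0.13), and was at 0.01 without GATA2 overexpression replicate 1.

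LDB1 (ENSG00000198728.10, chromosome 10, 102107560 to 102120453, minus strand) had 60.8, 68.7 and 61.6 CPM with GATA2 overexpression, 38.6, 39.4 and 40.7 CPM in CD90+ control libraries and 50.7, 53.9 and 50.3 CPM in CD38+ control libraries. Like LYL1 it was lowest in CD90+ control libraries. LDB1 rose 1.61-fold with GATA2 overexpression within CD90+ cells (log2 fold change 0.69 ± 0.05 SE, edgeR adjusted p = 1.23e-09). It was 1.31-fold lower in CD90+ than in CD38+ control cells (log2 fold change -0.39, adjusted p = 2.18e-06), but 0.02 with library size only (adjusted p = 0.664). The ratio of LMO2 to LDB1 reads was 1.72, 1.68 and 1.80 with GATA2 overexpression, 2.90, 2.93 and 2.73 in CD90+ control libraries and 0.984, 0.929 and 1.07 in CD38+ control libraries. These groups did not overlap, and the ratio was 1.64-fold lower with GATA2 overexpression than in CD90+ control cells and 2.88-fold higher in CD90+ than in CD38+ control cells (exact permutation p = 0.1 in both cases, the smallest possible).

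CBFA2T3, the corepressor gene of the complex (ENSG00000129993.14, chromosome 16, 88874858 to 88977204, minus strand), followed the order of TAL1. It had 45.6, 46.6 and 50.9 CPM with GATA2 overexpression, 34.7, 33.6 and 31.4 CPM in CD90+ control libraries and 17.0, 18.2 and 18.6 CPM in CD38+ control libraries. The groups did not overlap. CBFA2T3 rose 1.44-fold with GATA2 overexpression within CD90+ cells (log2 fold change 0.52 ± 0.06 SE, edgeR adjusted p = 2.45e-07) and was 1.85-fold higher in CD90+ than in CD38+ control cells (adjusted p = 4.12e-10). An antisense gene with no row in the table overlaps 8.39% of its exon length.

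Among the ETS factors ERG showed the largest fold change of the 10 genes in each comparison. ERG (ENSG00000157554.18, chromosome 21, 38380027 to 38661780, minus strand) had 92.7, 81.7 and 82.8 CPM with GATA2 overexpression, 28.3, 30.3 and 28.5 CPM in CD90+ control libraries and 3.22, 3.53 and 3.58 CPM in CD38+ control libraries. The CD38+ control values rest on 121, 132 and 143 reads. ERG rose 2.95-fold with GATA2 overexpression within CD90+ cells (log2 fold change 1.56 ± 0.05 SE, edgeR adjusted p = 6.75e-14). It was 8.43-fold higher in CD90+ than in CD38+ control cells (log2 fold change 3.08 ± 0.07 SE, adjusted p = 3.05e-16) and 24.9-fold higher with GATA2 overexpression than in CD38+ control cells (adjusted p = 5.46e-19). Of all genes tested, 97.8% had a log2 fold change at or below that of ERG within CD90+ cells, and 90.6% in CD90+ against CD38+ control cells.

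FLI1, the close relative of ERG (ENSG00000151702.16, chromosome 11, 128686535 to 128813267, plus strand), had 231, 222 and 228 CPM with GATA2 overexpression, 118, 111 and 111 CPM in CD90+ control libraries and 74.6, 71.0 and 73.2 CPM in CD38+ control libraries. The groups did not overlap and had the same order as for ERG. FLI1 rose 2.005-fold with GATA2 overexpression within CD90+ cells (log2 fold change 1.003 ± 0.03 SE, edgeR adjusted p = 9.61e-15), was 1.55-fold higher in CD90+ than in CD38+ control cells (adjusted p = 7.66e-12) and 3.12-fold higher with GATA2 overexpression than in CD38+ control cells (adjusted p = 1.04e-17).

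The ratio of FLI1 to ERG reads was 2.49, 2.72 and 2.75 with GATA2 overexpression, 4.17, 3.66 and 3.90 in CD90+ control libraries and 23.1, 20.04 and 20.4 in CD38+ control libraries. ERG was therefore a far smaller part of the pair in CD38+ control libraries. The ratio was 1.47-fold lower with GATA2 overexpression than in CD90+ control cells and 5.42-fold lower in CD90+ than in CD38+ control cells (exact permutation p = 0.1 in both cases, the smallest possible, adjusted p = 0.109). SENCR, an antisense RNA gene that begins at the FLI1 locus and overlaps 1.98% of the exon length of FLI1, was at 57.0 ± 4.12 CPM with GATA2 overexpression, 22.5 ± 1.8 CPM in CD90+ control libraries and 7.87 ± 1.19 CPM in CD38+ control libraries (SD, n = 3 each). It was looked up for this overlap after the values of FLI1 had been seen. Whether reads were assigned by strand is not given in the sources used here, so reads of the 2 genes in the shared exon cannot be told apart.

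ETV6 (ENSG00000139083.10, chromosome 12, 11649854 to 11895402, plus strand) varied least of the ETS factors. It had 127, 119 and 126 CPM with GATA2 overexpression, 95.4, 99.4 and 93.8 CPM in CD90+ control libraries and 107, 107 and 109 CPM in CD38+ control libraries. ETV6 rose 1.29-fold with GATA2 overexpression within CD90+ cells (log2 fold change 0.37 ± 0.03 SE, edgeR adjusted p = 1.65e-08). Its log2 fold change in CD90+ against CD38+ control cells was -0.16 with TMM factors (adjusted p = 0.000272), 0.25 with library size only and 0.10 with upper-quartile factors, so its direction there depends on the scaling.

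The promoter window of ERG at a start within the gene is shown because ERG differed most. It held 1 copy of GATAA at 82 bases before the start (capitals), and 1 copy of CAGGAA, a word bound by ETS factors that stood on either strand in 28.4% of all windows. Of the other 3 annotated ERG windows, 1 overlapped this window and shared the same GATAA copy, and the others held none. The RUNX1 window, also at a start within its gene, is set beside it as that of a gene lower in CD90+ than in CD38+ control cells. It held no GATAA and 1 copy of CCGGAA, another ETS word, which stood in 17.2% of windows. Of the other genes lower there with TMM factors, LYL1 held 2 copies of GATAA in its window, and LDB1 and ETV6 held none. CBFA2T3, which was higher there, held none either. Whether GATAA goes with the level of a gene was not tested.
ERG, chr21:38498455-38498754, minus strand: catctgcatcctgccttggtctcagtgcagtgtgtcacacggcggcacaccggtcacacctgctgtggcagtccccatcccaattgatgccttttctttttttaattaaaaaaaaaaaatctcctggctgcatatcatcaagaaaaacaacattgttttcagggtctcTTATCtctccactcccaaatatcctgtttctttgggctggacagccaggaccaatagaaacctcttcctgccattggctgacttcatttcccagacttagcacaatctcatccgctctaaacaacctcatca
RUNX1, chr21:34888650-34888949, minus strand: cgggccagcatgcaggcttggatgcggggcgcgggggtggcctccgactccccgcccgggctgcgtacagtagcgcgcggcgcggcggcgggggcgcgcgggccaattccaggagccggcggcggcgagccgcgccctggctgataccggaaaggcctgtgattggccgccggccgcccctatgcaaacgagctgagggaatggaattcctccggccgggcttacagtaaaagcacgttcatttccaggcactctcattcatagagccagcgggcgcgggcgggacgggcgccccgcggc

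The core-binding factor genes moved together. RUNX1 (ENSG00000159216.18, chromosome 21, 34787801 to 36004667, minus strand) had 123, 128 and 123 CPM with GATA2 overexpression, 92.4, 94.0 and 90.5 CPM in CD90+ control libraries and 168, 163 and 166 CPM in CD38+ control libraries. The groups did not overlap, and CD90+ control libraries were the lowest. RUNX1 rose 1.35-fold with GATA2 overexpression within CD90+ cells (log2 fold change 0.44 ± 0.03 SE, edgeR adjusted p = 2.76e-10). It was 1.79-fold lower in CD90+ than in CD38+ control cells (adjusted p = 2.37e-14) and 1.33-fold lower with GATA2 overexpression than in CD38+ control cells (adjusted p = 4.43e-10).

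CBFB (ENSG00000067955.13, chromosome 16, 67029116 to 67101058, plus strand) had 129.7, 138 and 130.4 CPM with GATA2 overexpression, 87.7, 85.9 and 92.0 CPM in CD90+ control libraries and 153, 154 and 153 CPM in CD38+ control libraries. Its groups had the same order as those of RUNX1. CBFB rose 1.5-fold with GATA2 overexpression within CD90+ cells (log2 fold change 0.59 ± 0.03 SE, edgeR adjusted p = 3.31e-11) and was 1.73-fold lower in CD90+ than in CD38+ control cells (adjusted p = 4.17e-13). With GATA2 overexpression it was 1.15-fold lower than in CD38+ control cells (adjusted p = 1.60e-05), a call that ended with library size only (adjusted p = 0.222) or upper-quartile factors (0.115).

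The ratio of RUNX1 to CBFB reads was 0.952, 0.927 and 0.945 with GATA2 overexpression, 1.05, 1.10 and 0.984 in CD90+ control libraries and 1.10, 1.06 and 1.09 in CD38+ control libraries. It lay lowest with GATA2 overexpression, and the control groups overlapped. The log2 ratio differed by -0.15 between GATA2 overexpression and CD90+ control cells (exact permutation p = 0.1) and by -0.05 between CD90+ and CD38+ control cells (exact permutation p = 0.4). RUNX1 and CBFB were also the 2 genes of the 10 with the most alike patterns, with a distance of 0.28 between their centred log2 CPM values over the 9 libraries.

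**Figure D2:**
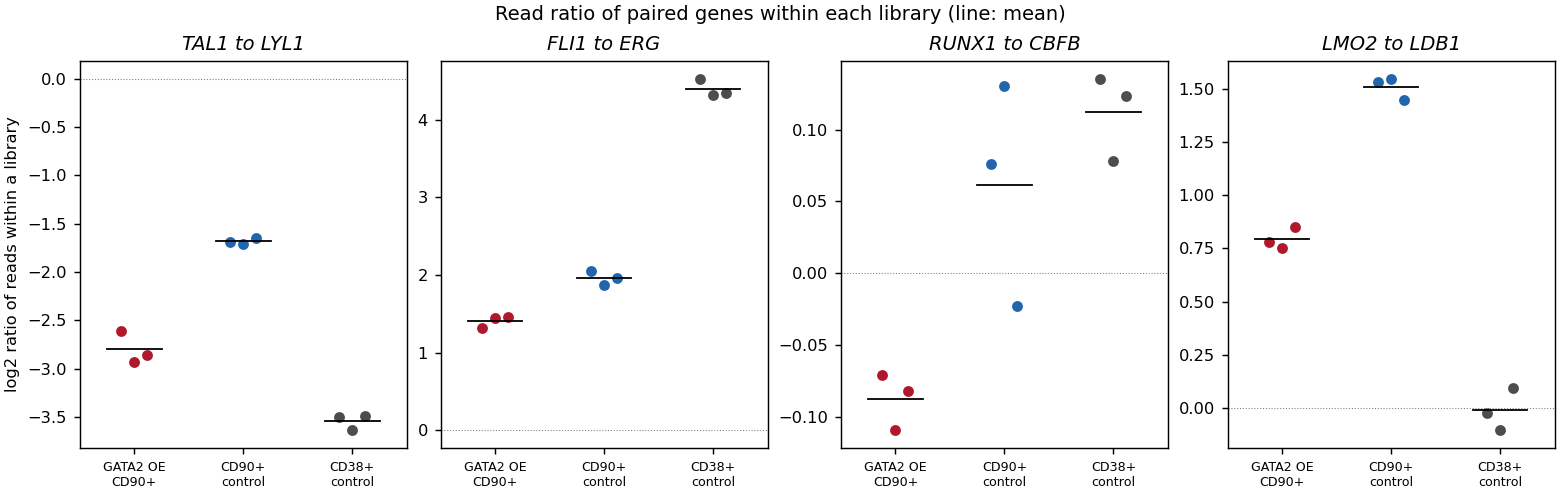
Log2 ratio of the reads of 2 genes within each library (vertical axes), by group, with points for libraries and lines for group means. TAL1 to LYL1 and LMO2 to LDB1 were highest in CD90+ control libraries, FLI1 to ERG was highest in CD38+ control libraries, and RUNX1 to CBFB stayed between -0.11 and 0.14.

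**Figure D3:**
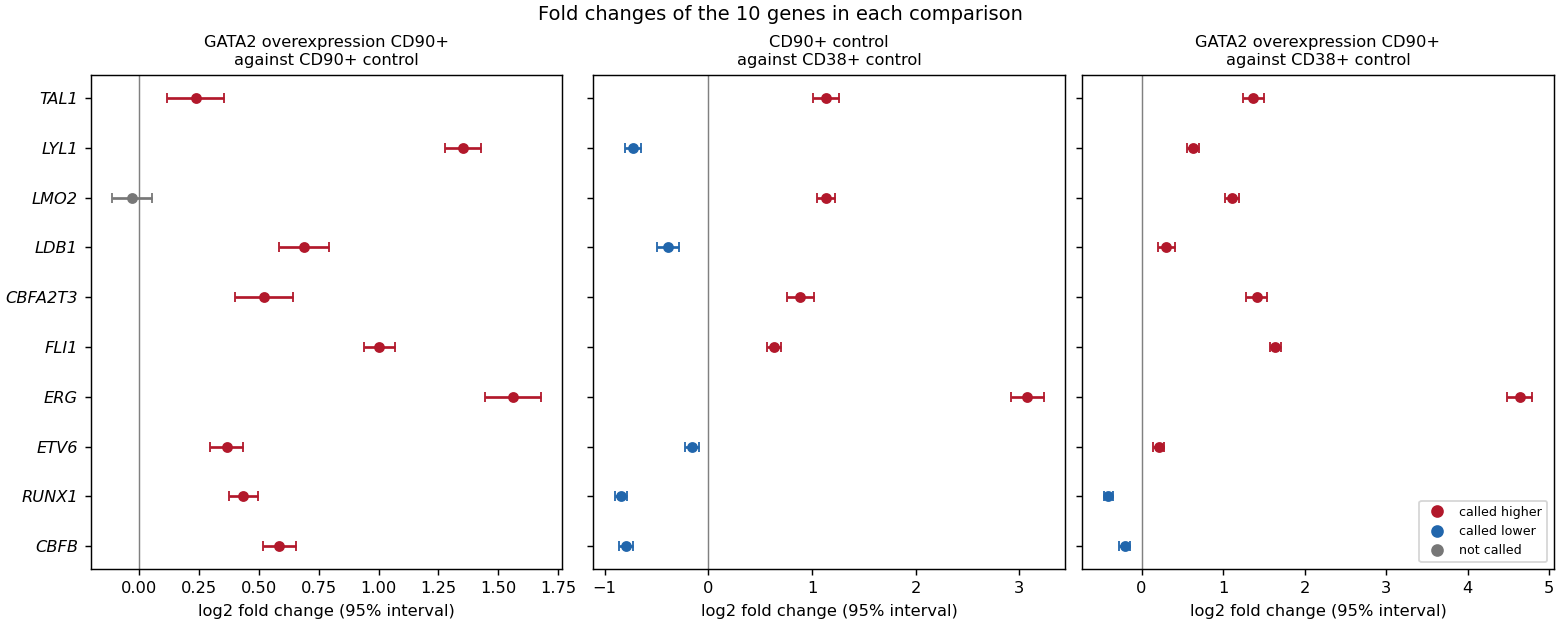
Log2 fold change of each gene (horizontal axes) with its 95% interval in the 3 comparisons, coloured by edgeR call with TMM scaling. LMO2 at -0.03 is the only one of the 10 not called for GATA2 overexpression against CD90+ control cells, and ERG lies farthest to the right in each comparison. With library size only TAL1 in the first comparison and LDB1 and ETV6 in the second lay on the other side of 0.

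To set the genes beside each other, levels were divided by exon length (RPKM, CPM per kilobase of annotated exon). LYL1 ranked first in every group, at 97.7 ± 5.65 RPKM with GATA2 overexpression, 38.2 ± 0.925 RPKM in CD90+ control cells and 63.2 ± 0.862 RPKM in CD38+ control cells (SD, n = 3 each). LMO2 ranked second in both CD90+ groups, at 35.5 ± 1.83 RPKM with GATA2 overexpression and 36.2 ± 0.731 RPKM in CD90+ control cells, and behind CBFB and LDB1 in CD38+ control cells at 16.5 ± 0.678 RPKM. ERG was last in both control groups, at 3.83 ± 0.147 RPKM in CD90+ control libraries and 0.454 ± 0.0259 RPKM in CD38+ control cells, but stood above RUNX1, CBFA2T3 and TAL1 with GATA2 overexpression at 11.3 ± 0.80 RPKM.

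Neighbours in this order mostly did not overlap between libraries. With GATA2 overexpression RUNX1 (8.02 RPKM), CBFA2T3 (7.99) and TAL1 (7.66) could not be ordered. In CD90+ control cells LDB1 (14.2), FLI1 (13.9) and ETV6 (13.6) could not, nor could CBFA2T3 (3.01) and TAL1 (2.96) in CD38+ control cells. RUNX1 has 15574 bases of annotated exon but 7274 in its longest transcript. With the longest transcript as the length it moved to rank 3 in place of 6 in CD38+ control cells and to rank 7 in place of 8 in both CD90+ groups. RUNX1 (17.2 ± 0.393 RPKM) and ERG (17.0 ± 1.21 RPKM) were then level with GATA2 overexpression. Whether ERG stood above RUNX1 there thus depends on the length used.

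**Figure D4:**
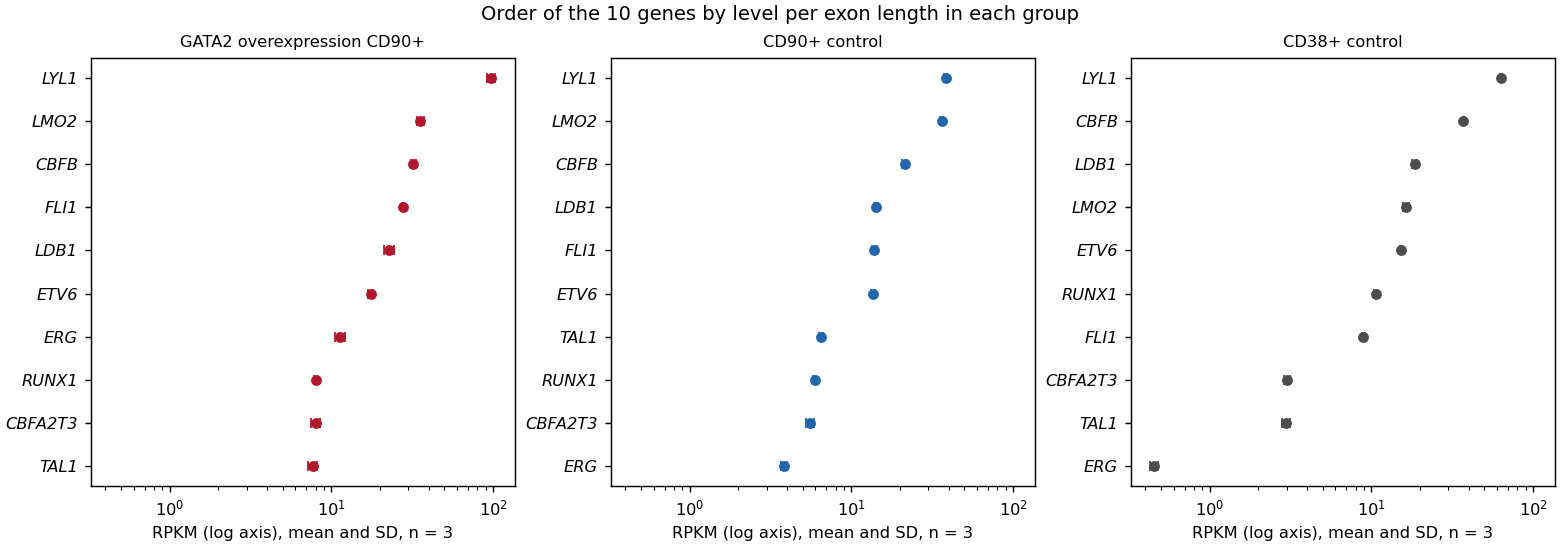
Mean level per exon length (RPKM, log axis) with SD of the 10 genes in each group, sorted from the highest. LYL1 leads each group, and ERG is last in both control groups but stands above RUNX1, CBFA2T3 and TAL1 with GATA2 overexpression. With the longest transcript as length ERG and RUNX1 were level there.

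Patterns were compared with those of the other genes by the distance between log2 CPM values over the 9 libraries, each centred on its gene's mean, among 10610 genes of at least 5 CPM. The gene closest to ERG was CD34, a surface antigen of blood progenitors and endothelium (distance 0.21), with 389 CPM with GATA2 overexpression, 122 CPM in CD90+ control libraries and 15.1 CPM in CD38+ control libraries. Next were ARHGAP22 (0.36) and RHAG, a red cell membrane protein gene (0.43). The closest to TAL1 were IGFBP4, HSP90AB1 and DLC1 (0.16, 0.17 and 0.19), and LMO2 was the closest of the 10 genes (0.45). The closest to RUNX1 were LSM4, UBE2F and TMEM205 (0.09, 0.10 and 0.10). The 9 libraries form 3 groups, so the measure rests mainly on 3 levels per gene.

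The genes that act with the complex or under it were counted in 9 lists of 86 genes, 85 of them in the table and 82 tested. With GATA2 overexpression 33 were higher and 35 lower than in CD90+ control cells (median log2 fold change -0.06). Among all genes tested, 38.0% were called higher and 39.6% lower there (median -0.04). Between the control groups 44 were higher and 32 lower in CD90+ than in CD38+ control cells (median 0.25). The shares of all genes there were 41.1% higher and 39.3% lower (median 0.03). Counts of single lists in these comparisons stand beside the same shares, and whether a list departs from them was not tested. Of 11 target genes of stem cells and megakaryocytes 11 rose with GATA2 overexpression within CD90+ cells, with a median log2 fold change of 1.17. Among them NFE2, a factor of late megakaryocytes and red cells, rose 3.54-fold, MYB, needed for definitive blood progenitors, 3.51-fold and CD34 3.18-fold. In CD90+ against CD38+ control cells 8 of the 11 were higher and 2 lower, with the platelet chemokine gene PF4 15.6-fold higher, MEIS1 8.37-fold higher and NFE2 1.49-fold lower. Against CD38+ control cells 10 of the 11 were higher with GATA2 overexpression and 0 lower, against 43.3% and 39.9% of all genes tested. Megakaryocyte markers moved beside them: of 9 tested, 6 were higher and 1 lower with GATA2 overexpression than in CD90+ control cells, and 8 higher and 0 lower in CD90+ than in CD38+ control cells.

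The other GATA factor of the complex, GATA1, rose 3.96-fold with GATA2 overexpression within CD90+ cells and was 2.81-fold lower in CD90+ than in CD38+ control cells. ZFPM2, a cofactor gene of GATA proteins, was 2.01-fold and 2.48-fold higher in these comparisons. Its relative ZFPM1 averaged 2.73 CPM with GATA2 overexpression, 2.81 CPM in CD90+ control and 2.65 CPM in CD38+ control libraries. Of the 5 genes of GATA factors and these cofactors, 3 rose and 0 fell with GATA2 overexpression within CD90+ cells. In CD90+ against CD38+ control cells 2 of the 5 were higher and 2 lower. Of the 7 genes of E proteins and ID inhibitors, 2 rose and 3 fell with GATA2 overexpression. ID proteins hold E proteins away from DNA, and ID2 fell 1.92-fold, ID3 1.76-fold and ID1 1.17-fold within CD90+ cells. The E protein gene TCF3 rose 1.19-fold, a call that ended with library size only. In CD90+ against CD38+ control cells 5 of the 7 were higher and 2 lower, with ID1 3.32-fold, ID3 2.71-fold and ID4 2.33-fold higher. TCF12, another E protein gene, was 1.24-fold lower there with TMM factors, with a log2 fold change of 0.10 with library size only.

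LMO4, a LIM-only protein gene whose product also binds LDB1, rose 3.08-fold with GATA2 overexpression within CD90+ cells and was 2.71-fold lower in CD90+ than in CD38+ control cells, where LMO2 was higher. RLIM, a ubiquitin ligase gene that acts on LDB1 complexes, fell 1.82-fold with GATA2 overexpression. It was 1.27-fold lower in CD90+ than in CD38+ control cells with TMM factors (log2 fold change 0.07 with library size only). SSBP4, of the family of single-stranded DNA-binding proteins that protect LDB1, rose 1.51-fold, and SSBP3 was 1.93-fold lower in CD90+ than in CD38+ control cells. Of the 8 adaptor genes, 3 rose and 3 fell with GATA2 overexpression within CD90+ cells. LMO1 and LMO3 had 0 reads in the CD38+ control libraries.

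Of 4 relatives of RUNX1 and CBFA2T3, 1 rose and 2 fell with GATA2 overexpression within CD90+ cells, and 2 were higher and 1 lower in CD90+ than in CD38+ control cells. RUNX3, whose product is best known from T cells and myeloid cells, was at 11.1 ± 0.430 CPM with GATA2 overexpression, against 113 ± 1.60 CPM in CD90+ control cells (SD, n = 3 each), a 10.2-fold fall. RUNX2, the bone regulator, fell 3.79-fold and was 7.97-fold lower in CD90+ than in CD38+ control cells. RUNX1T1, a relative of CBFA2T3, was 1.63-fold higher with GATA2 overexpression and 18.2-fold higher in CD90+ than in CD38+ control cells, where its level was 0.465 ± 0.236 CPM (SD, n = 3). Of 20 other ETS genes tested, 4 rose and 12 fell with GATA2 overexpression within CD90+ cells, and ETV5 (2.87-fold), ETV3 (2.66-fold) and ETS2 (2.05-fold) were among those that fell, while ELF1 rose 1.22-fold (not called with library size only). In CD90+ against CD38+ control cells 9 were higher and 9 lower, with ETS1 4.90-fold lower and ELK3 2.52-fold higher. Macrophage markers fell in the first comparison too: 9 of 9 tested were lower with GATA2 overexpression than in CD90+ control cells. The summed level of the 10 in the table was 222 to 244 CPM with GATA2 overexpression, 1770.5 to 1802 CPM in CD90+ control libraries and 890.03 to 946 CPM in CD38+ control libraries. In CD90+ against CD38+ control cells 6 of the 9 were higher and 3 lower. There RUNX2 and ETV5 were lower, the mean levels of ETV3 and ETS2 were higher, and RUNX3 was at 113 against 118 CPM. The part of macrophages in the results on RUNX and ETS genes was not tested.

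Of 13 corepressor and coactivator genes, 4 rose and 9 fell with GATA2 overexpression within CD90+ cells. HDAC2, HDAC1 and KDM1A, which remove histone marks in corepressor complexes, rose 2.11-fold, 1.49-fold and 1.72-fold, and the acetyltransferase gene EP300 fell 2.36-fold. In CD90+ against CD38+ control cells 11 of the 13 were lower and 1 higher, with IRF2BP2, a cofactor of CBFA2T3, 3.04-fold lower, HDAC1 2.36-fold lower, NCOR1 1.78-fold lower and KDM1A 1.82-fold higher. Of 6 red cell target genes 1 rose and 3 fell with GATA2 overexpression, with KLF1, the red cell master regulator, up 3.72-fold and ALAS2, of haem synthesis, down 2.11-fold. In CD90+ against CD38+ control cells 5 of these 6 were higher and 1 lower, with ALAS2 6.23-fold higher.

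Of 8 endothelial target genes 4 rose and 3 fell with GATA2 overexpression within CD90+ cells, with ICAM2 up 2.61-fold and KDR, a VEGF receptor gene, down 1.88-fold. In CD90+ against CD38+ control cells 7 of the 8 were higher and 1 lower, with KDR 24.5-fold and TEK, the receptor of angiopoietins, 45.7-fold higher. ENG was 1.40-fold lower there (not called with library size only). FLI1, ERG, TAL1, LYL1 and LMO2 are expressed in endothelium too. The summed level of 13 endothelial markers was 1382 to 1407 CPM with GATA2 overexpression, 901 to 927 CPM in CD90+ control libraries and 743 to 800 CPM in CD38+ control libraries, and EMCN had 0 reads in the CD38+ control libraries. EGFL7, PECAM1, ESAM and TIE1 made up most of this sum in every group, and less abundant markers had other patterns. KDR averaged 29.3 CPM with GATA2 overexpression, 55.0 CPM in CD90+ control and 2.25 CPM in CD38+ control libraries. TEK averaged 31.2 CPM with GATA2 overexpression, 26.0 CPM in CD90+ control and 0.569 CPM in CD38+ control libraries. Of the 13, 7 were higher and 4 lower with GATA2 overexpression than in CD90+ control cells, and 10 were higher and 1 lower in CD90+ than in CD38+ control cells. Their part in the levels of the 10 genes was not tested.

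**Figure D5:**
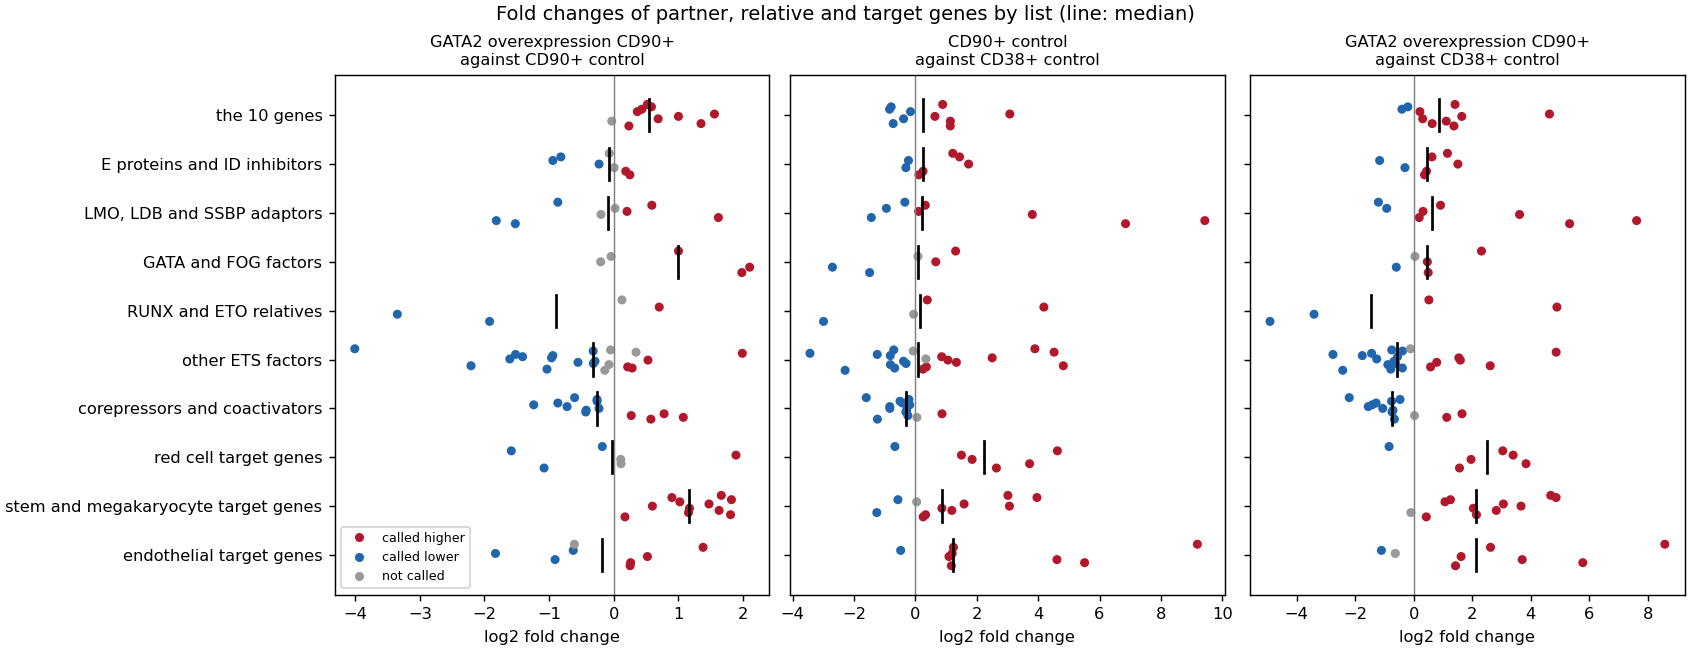
Log2 fold changes (horizontal axes) of the 10 genes and of the genes of 9 lists in the 3 comparisons, coloured by edgeR call with TMM scaling, with the median of each list as a black line. Stem cell and megakaryocyte target genes all lie to the right of 0 for GATA2 overexpression against CD90+ control. LMO1, LMO3 and EMCN had 0 reads in CD38+ control cells, so their points against these cells depend on the prior count of the fit. TEK, with 16 to 28 reads in CD38+ control libraries, lies at 5.51 for CD90+ control and 5.78 for GATA2 overexpression against CD38+ control.

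The other marker lists set the frame for the fractions. Summed levels of 9 megakaryocyte markers were 4008 to 4123 CPM with GATA2 overexpression, 2552 to 2586 CPM in CD90+ control libraries and 536 to 542 CPM in CD38+ control libraries. For 13 erythroid markers they were 445 to 525 CPM with GATA2 overexpression, 833 to 858 CPM in CD90+ control libraries and 213 to 221 CPM in CD38+ control libraries, with AHSP at 0 reads in CD38+ control cells. Of 12 erythroid markers tested, 2 were higher and 8 lower with GATA2 overexpression than in CD90+ control cells, and 12 were higher in CD90+ than in CD38+ control cells. For 10 mast cell, basophil and eosinophil markers they were 541 to 598 CPM with GATA2 overexpression, 170.1 to 176 CPM in CD90+ control libraries and 5327 to 5553 CPM in CD38+ control libraries. Of these 10, 9 were higher and 1 lower with GATA2 overexpression than in CD90+ control cells, and 2 were higher and 7 lower in CD90+ than in CD38+ control cells.

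The 8 granulocyte precursor markers summed to 2227 to 2493 CPM with GATA2 overexpression, 1889 to 1919.8 CPM in CD90+ control libraries and 6689 to 7005 CPM in CD38+ control libraries, but they did not move one way. With GATA2 overexpression 3 were higher and 3 lower than in CD90+ control cells. MPO, the most abundant in both CD90+ groups, averaged 1746 CPM with GATA2 overexpression and 969.9 CPM in CD90+ control cells, whereas S100A8 averaged 38.8 CPM with GATA2 overexpression and 220.4 CPM in CD90+ control cells, and S100A9 averaged 84.3 CPM with GATA2 overexpression and 327 CPM in CD90+ control cells. Between the control groups 2 of the 8 were higher and 6 lower in CD90+ cells. Mesenchymal markers (10 genes) summed to 270.5 to 289.9 CPM with GATA2 overexpression, 1109.7 to 1129 CPM in CD90+ control libraries and 25.2 to 26.4 CPM in CD38+ control libraries, where POSTN had 0 reads. All 10 were lower with GATA2 overexpression than in CD90+ control cells and higher in CD90+ than in CD38+ control cells. Epithelial and endoderm markers (8 genes) summed to 704 to 709 CPM with GATA2 overexpression, 1059 to 1066 CPM in CD90+ control and 358 to 373 CPM in CD38+ control libraries, and 1 was higher and 7 lower with GATA2 overexpression than in CD90+ control cells. Pluripotent markers (5 genes) summed to 60.3 to 65.6 CPM with GATA2 overexpression, 62.2 to 63.3 CPM in CD90+ control and 8.61 to 9.47 CPM in CD38+ control libraries, with POU5F1 at 0 reads in GATA2 overexpression and CD38+ control libraries. Of 4 pluripotent markers tested, 1 was higher and 3 lower with GATA2 overexpression than in CD90+ control cells (median log2 fold change -0.71). The higher one was DPPA4, at 39.4 CPM with GATA2 overexpression and 23.3 CPM in CD90+ control cells. Lymphoid markers (6 genes) summed to 50.5 to 51.7 CPM with GATA2 overexpression, 101.7 to 108 CPM in CD90+ control and 308 to 320.0 CPM in CD38+ control libraries, and 1 was higher and 4 lower with GATA2 overexpression than in CD90+ control cells. The part of these cell types in the levels of the 10 genes was not tested.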

How the data were processed

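Per the labels' protocols, strand-specific libraries (9 in all) were read from both ends. The authors deposited raw counts per gene symbol. The submitters' processing notes name HISAT2, featureCounts and hg38, while the sources used here give no version, setting or annotation and do not say whether counting used strand. All 9 columns were used, and 0 were left out. Genes that share reads with an overlapping gene are therefore uncertain.

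Counts were tested with edgeR 4.0.16 in R 4.3.3 (TMM factors, filterByExpr with a minimum count of 10 and a minimum total of 15, a model of 3 group means over 9 libraries without a block). Common dispersion was 0.00452. Each standard error is the log2 fold change over the root of its F statistic. Ratios used 0.5 added reads and an exact two-sided permutation test (scipy 1.17.1). Exon lengths and positions are from GENCODE on GRCh38, and promoter windows from RefSeq. Each library was counted as its own replicate. Replicates differed by a chi-square of 3.96 to 7.84 per degree of freedom over genes with at least 20 reads. This spread cannot tell separate cultures from separate preparations of the same culture.

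The 10 genes and the gene lists were chosen with earlier results of these data known. From each list up to 3 genes with the lowest adjusted p among called genes of at least 5 CPM were named in a comparison, and 1 called in the other direction, beside the 3 genes closest in pattern to TAL1, RUNX1 and ERG. SENCR, ETV2, SPIB and SPI1 were added after their values were seen. On simulated data with 200 of 16232 genes changed, the fit recovered 98.4% of 2-fold changes of genes with at least 5 CPM for GATA2 overexpression against CD90+ control and 100% in each of the other comparisons, and 5.71% to 7.22% of calls were false. In the real comparisons 77.6% to 83.2% of genes were called, so these rates cannot be carried over to them. The simulation did not test errors that come from scaling. Alternatives were RLE, upper-quartile and no factors, other filters, DESeq2 1.42.0, limma voom (limma 3.58.1), fits on 2 groups, a replicate block, leaving out each library, 1 added read in the ratios and the longest transcript as length.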

Additional observations from a re-analysis of the deposited data

How the results depend on the processing

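Of 540 values of the 10 genes under 18 alternatives in 3 comparisons, 529 kept their direction and call. The 540 include fits without a library of the group outside a comparison. Most of the changes came with library size only or upper-quartile factors. For GATA2 overexpression against CD90+ control, TAL1 was at -0.012 (log2) with library size only and 0.12 with upper-quartile factors, and LMO2 ran from -0.059 to 0.014 when single libraries were left out, the highest without GATA2 overexpression replicate 1. For CD90+ against CD38+ control with library size only, LDB1 was at 0.024, ETV6 at 0.25 (0.10 with upper-quartile factors), TCF12 at 0.10 and RLIM at 0.065. Library size only leaves out the TMM factors by construction. The 10 genes then split 8 higher and 1 lower for GATA2 overexpression against CD90+ control, 6 and 3 for CD90+ against CD38+ control, and, between GATA2 overexpression and CD38+ control, 8 and 1, whereas all calls were higher in 35.5%, 71.2% and 58.0% of cases, against 49.0%, 51.2% and 52.1% with TMM factors. With upper-quartile factors these shares were 42.8%, 64.3% and 57.5%, and the 10 genes split 8 and 1, 6 and 4, and 8 and 1. Leaving out each library, 9, 10 and 10 of the 10 genes were called in the 3 comparisons every time. The 84 recomputed ratio differences kept their direction. With the longest transcript as length, 5 and 6 of the 10 genes held their rank in CD90+ control and CD38+ control cells.

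Libraries with the same number had correlations of their deviations from -0.06 to 0.01, and 1 of 18 correlated best with its own number in another group. These values show no pairing by number, but they cannot tell whether such libraries shared a culture, sort or preparation. With the replicate block 12384, 12889 and 13347 genes were called in the 3 comparisons, against 12602, 13056 and 13498 without it, and 9, 10 and 10 of the 10 genes. The lowest depth behind a value was that of ERG in CD38+ control cells, with 121 to 143 reads.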

Other observations

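The levels of 3 other ETS genes, picked out after their values were seen, were as follows. ETV2, an ETS factor that acts when blood and endothelium first form, was at 2.43 ± 0.159 CPM with GATA2 overexpression, 4.73 ± 0.389 CPM in CD90+ control libraries and 0.831 ± 0.220 CPM in CD38+ control libraries. SPIB, an ETS factor of B cells and plasmacytoid dendritic cells, was at 0.177 ± 0.0447 CPM with GATA2 overexpression, 2.89 ± 0.0499 CPM in CD90+ control libraries and 0.192 ± 0.113 CPM in CD38+ control libraries. SPI1, the myeloid ETS factor PU.1, was at 175 ± 13.6 CPM with GATA2 overexpression, 181 ± 2.87 CPM in CD90+ control libraries and 296 ± 5.84 CPM in CD38+ control libraries (SD, n = 3 each).

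The reads of the 10 genes made up 0.122% to 0.126% of all counts in GATA2 overexpression CD90+ libraries, 0.0879% to 0.0890% in CD90+ control libraries and 0.0730% to 0.0740% in CD38+ control libraries. This share amounts to scaling by library size only. That scaling moved the log2 fold changes of all genes by a median of -0.25 for GATA2 overexpression against CD90+ control. The shift was 0.41 for CD90+ against CD38+ control and 0.16 for GATA2 overexpression against CD38+ control. The groups did not overlap, as held for 80.4% to 83.0% of all genes tested in each comparison with TMM factors.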
